A study of Homo sapiens with 6 samples.

Results

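The genes described here are 10 effectors and feedback regulators of WNT and β-catenin signalling, namely *CTNNB1*, *AXIN1*, *AXIN2*, *LEF1*, *TCF7*, *TCF7L1*, *TCF7L2*, *LGR4*, *RNF43* and *ZNRF3*. They were taken as a list of symbols, all 10 matched a symbol in the tables, and all 10 passed the filter on low counts among 23345 genes tested. RNA-seq was performed on 3 libraries from cells expressing a control short hairpin RNA (sh-control) and 3 libraries labelled as expressing a hairpin against *RREB1* (sh-*RREB1*). RREB1 is a zinc finger transcription factor that binds RAS-responsive promoter elements. The cells were HEK293T, an embryonic kidney line that carries a viral large T antigen, grown in DMEM with 10% FBS. Both groups were stable lines made by infection with pLKO.1 lentivirus and selected with neomycin, and a single *RREB1* hairpin was used. No source used here says that the 3 libraries of a group came from separate cultures, so the p-values measure the spread between these libraries, which may be technical.

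The sh-control libraries held 23362197 to 33044061 reads on genes and the sh-*RREB1* libraries 12257054 to 26145878. In sh-*RREB1* replicate 3, 52.1% of aligned reads mapped to several places, against 3.66 to 7.63% in the other libraries. Levels are given as CPM, read counts scaled to the size of the library. *RREB1* itself had 27.1, 25.1 and 26.6 CPM in the sh-control libraries and 23.7, 24.6 and 23.1 CPM in sh-*RREB1*. All 3 sh-*RREB1* libraries lay below all sh-control libraries. The log2 fold change was −0.14 (SE 0.13, edgeR adjusted p = 0.486), and −0.36 (SE 0.12, edgeR adjusted p = 0.0534) with a correction for GC content and length described below. The reduction of the target passed the test in neither fit, and every direction below is that of the libraries labelled sh-*RREB1*. The summed level of 7 HEK293 markers was 651 to 698 CPM in the sh-control libraries and 959 to 1024 CPM in sh-*RREB1*. Of these, *VIM* had a mean of 340 CPM in sh-control and 571 CPM in sh-*RREB1*, and *LIN28B* 235 and 236 CPM. *PAX2* was near the floor, at 3 reads in each sh-control library and 10, 8 and 6 reads in sh-*RREB1*. Markers of fibroblasts summed to 0.956 to 1.65 CPM in the sh-control libraries and 1.43 to 8.86 CPM in sh-*RREB1*, and those of lymphoid, endothelial and liver cells each to at most 1.37 CPM. The 8.86 CPM was in sh-*RREB1* replicate 2, where *COL1A2* had 103 reads, against 0 and 1 in sh-*RREB1* replicates 1 and 3. The part of these differences in the results below was not tested. In bulk RNA, fewer cells of a type and less RNA per cell cannot be told apart.

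In the canonical WNT pathway, β-catenin (*CTNNB1*) is held low in the cytoplasm by a destruction complex built on the scaffolds AXIN1 and AXIN2. When WNT binds Frizzled and LRP receptors the complex is inhibited, and β-catenin enters the nucleus and binds the TCF/LEF proteins (LEF1, TCF7, TCF7L1 and TCF7L2), which sit on DNA at target genes. The pathway is tuned at the membrane by RNF43 and ZNRF3, ubiquitin ligases that remove Frizzled receptors, and by LGR4, a receptor for R-spondins, which clear these ligases. *AXIN2*, *RNF43*, *ZNRF3* and *LEF1* are textbook targets of the pathway and so act in its feedback.

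The 10 genes differed widely in level. Per kilobase (kb) of the canonical transcript, *CTNNB1* stood highest in sh-control at 306 ± 27.3 CPM per kb (SD, n = 3). *LGR4* followed at 19.6 ± 1.72 CPM per kb and *LEF1* at 5.58 ± 0.639 CPM per kb. These levels did not overlap with that of the gene next in order. The following 6 genes were *TCF7L2* at 2.96 ± 1.07, *ZNRF3* at 2.94 ± 0.0804, *AXIN1* at 2.86 ± 1.01, *AXIN2* at 2.45 ± 0.0799, *RNF43* at 2.03 ± 0.368 and *TCF7* at 1.85 ± 0.107 CPM per kb. In this run each gene overlapped with its neighbour in range. The spacing depends on the length used: per kb of all exons together *CTNNB1* was at 95.3 CPM per kb, and these 6 genes ran from *ZNRF3* at 2.89 to *TCF7* at 0.603 CPM per kb, in another order. *TCF7L1*, a TCF protein best known as a repressor, was lowest at 0.164 ± 0.0309 CPM per kb, from 11 to 16 reads per sh-control library. In sh-*RREB1* the order of the top 3 and the bottom 3 was the same, and *AXIN1*, at 5.84 ± 0.63 CPM per kb, stood next after *LEF1*.

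**Figure D1:**
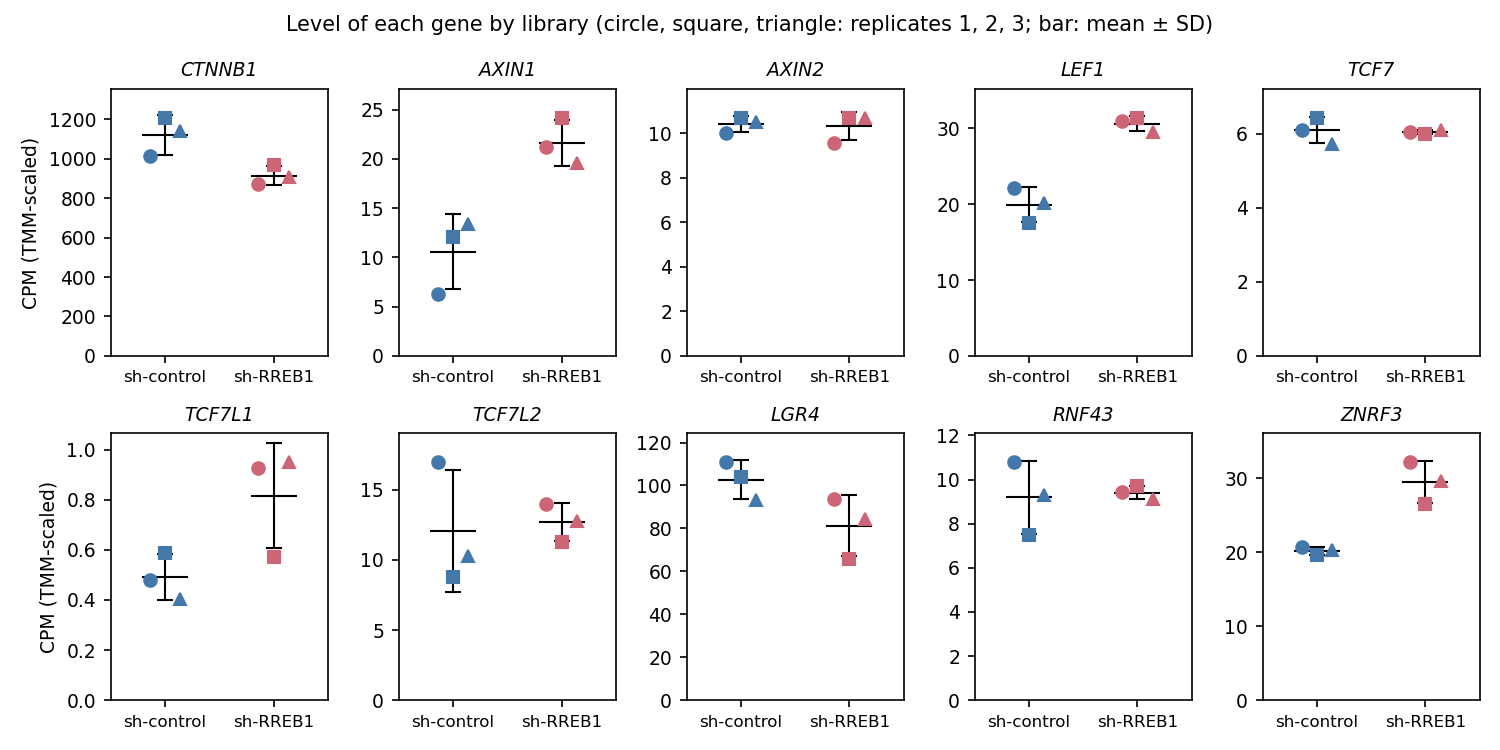
Level of each of the 10 genes in CPM (TMM-scaled, vertical axes starting at 0 and differing between panels) in the 3 sh-control (blue) and 3 sh-RREB1 (red) libraries, with mean ± SD. The groups do not overlap for AXIN1, LEF1 and ZNRF3 (sh-RREB1 above) and CTNNB1 (sh-RREB1 below), and overlap for the other 6 genes.

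The first question was which of the 10 genes differed between the groups. To be called, a gene needed a Benjamini-Hochberg adjusted p under 0.01 together with a log2 fold change over 1 in size, the thresholds of the study. By this rule 0 of the 10 genes were called with edgeR, against 3.41% of all genes tested (2.71% higher and 0.698% lower). At an unadjusted p below 0.05 there were 5 of 10, against 34.4% of all genes, and DESeq2 called 1 (*AXIN1*), against 7.06% of all genes (5.93% higher and 1.13% lower). At an adjusted p below 0.05 with no minimum fold, *AXIN1*, *LEF1* and *ZNRF3* passed with edgeR, all 3 with higher values in sh-*RREB1*, where 10.8% of all genes passed in that direction, 8.81% in the other and 19.6% in either. The 3 sh-*RREB1* libraries lay above the 3 sh-control libraries for the same 3 genes (21.1% of all genes) and below them for *CTNNB1* (20% of all genes), and 41.1% of all genes were without overlap in either direction. The median log2 fold change was 0.06 over the 10 genes and 0.01 over all genes tested.

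The fold changes of all genes followed the GC content of their exons. Among expressed genes, the decile with the lowest GC content had a median log2 fold change of −0.23, and the decile with the highest (59.7 to 73.8%) a median of 1.11, of which 17.7% were called. The same gradient set sh-control replicate 1 apart from sh-control replicates 2 and 3, with medians of 0.25 and −0.90 in these deciles. The fit was therefore repeated with each library's trend on GC content and length removed. Since the trends differ between the groups, this correction can also remove a true difference that follows GC content. After it, 3.02% of all genes were called (1.82% higher and 1.2% lower) and again 0 of the 10, while 22.1% of all genes passed an adjusted p of 0.05. At an adjusted p below 0.05 *LEF1* passed as higher (10.4% of all genes in that direction) and *AXIN2* as lower (11.7%).

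**Figure D2:**
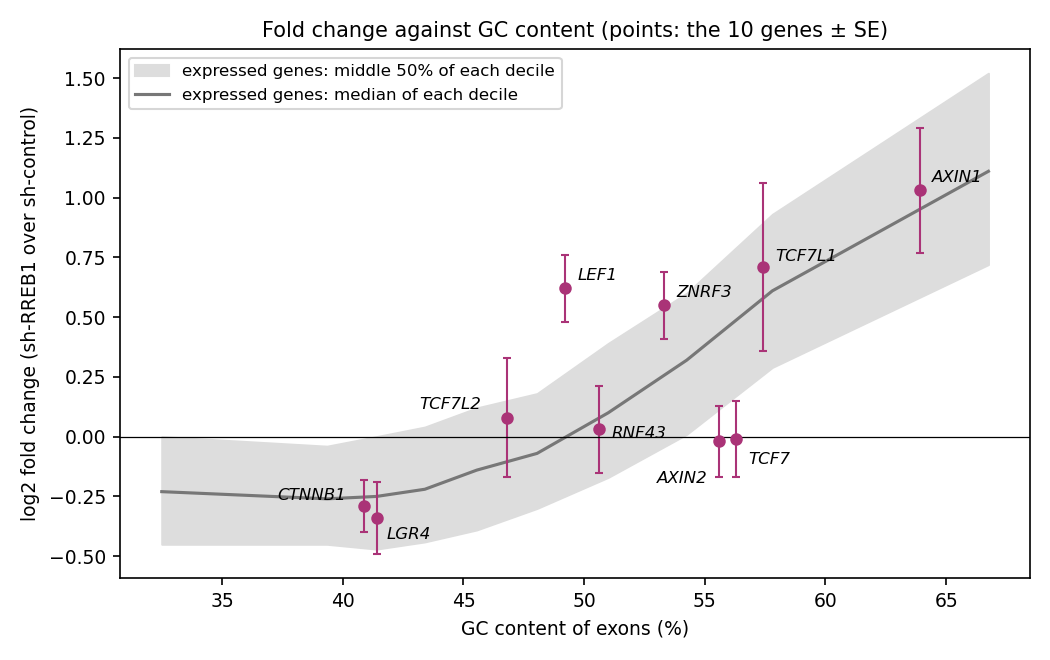
Log2 fold change of the 10 genes (points, ± SE) against the GC content of their exons in percent, over the median (line) and middle 50% (band) of expressed genes in deciles of GC content. AXIN1, at 63.9% GC, lies on the band at 1.03, LEF1 lies above it at 0.62, and AXIN2 and TCF7 lie below it near 0.

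*CTNNB1* encodes β-catenin, which is both the transcriptional effector of the pathway and a part of adherens junctions. The gene lies on chromosome 3 (41194741 to 41260096, plus strand, GRCh38) with 15 exons in its canonical transcript. Its level was 1011, 1208 and 1142 CPM in the sh-control libraries and 870, 967 and 906 CPM in sh-*RREB1*. All sh-*RREB1* libraries were below all sh-control libraries. The log2 fold change was −0.29 (SE 0.11, 95% interval −0.54 to −0.05), and it did not pass the test (edgeR adjusted p = 0.0857). Genes of its decile of GC content (40.4 to 42.4%) had a median of −0.25, and with the trend removed its value was −0.09 (edgeR adjusted p = 0.672).

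*AXIN1* encodes the scaffold that limits assembly of the destruction complex. It lies on chromosome 16 (287440 to 352723, minus strand, GRCh38), has 11 exons, and at 63.9% is the most GC-rich of the 10 genes. Its level was 6.3, 12.1 and 13.4 CPM in sh-control (145, 329 and 429 reads) and 21.2, 24.2 and 19.6 CPM in sh-*RREB1* (526, 633 and 247 reads). The groups did not overlap, and sh-control replicate 1 stood lowest, at a log2 difference of −1.01 from the mean of sh-control replicates 2 and 3. The log2 fold change was 1.03 (SE 0.26, 95% interval 0.43 to 1.63, edgeR adjusted p = 0.0278). It was 0.73 without sh-control replicate 1 (edgeR adjusted p = 0.00636), and with DESeq2 it was 1.01 (adjusted p = 0.00181). Once the GC trend was taken out the direction turned, to −0.26 (SE 0.11, 95% interval −0.49 to −0.02, edgeR adjusted p = 0.113), and it lay between −0.32 and −0.22 when each library was left out in turn.

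*AXIN2* is the inducible paralog of *AXIN1* and a widely used readout of pathway activity. It lies on chromosome 17 (65528563 to 65561648, minus strand, GRCh38). Its level was 10.0, 10.7 and 10.5 CPM in the sh-control libraries and 9.58, 10.7 and 10.7 CPM in sh-*RREB1*. The groups overlapped, with a log2 fold change of −0.02 (SE 0.15, edgeR adjusted p = 0.959). Genes of its decile of GC content (52.6 to 55.9%) had a median of 0.32, and with the trend removed its value was −0.50 (SE 0.15, edgeR adjusted p = 0.0383). The ratio of *AXIN1* to *AXIN2* per kb was 0.721, 1.3 and 1.46 in sh-control and 2.54, 2.6 and 2.1 in sh-*RREB1*. The groups did not overlap in this ratio, which compares genes of unequal GC content, and 3 libraries against 3 cannot reach an exact permutation p below 0.1.

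The promoters of *AXIN1* and *LEF1* are shown because these genes had the largest fold changes among the 3 that passed an adjusted p of 0.05 by edgeR. The windows run from 250 bases before to 50 after the start site (RefSeq, GRCh38.p14), for *AXIN1* chr16:352674-352973 and for *LEF1* chr4:108166252-108166551, both on the minus strand, 5′ to 3′, with CpG dinucleotides in capitals. The *AXIN1* window is at the start of the canonical transcript. The *LEF1* window is at an internal start site, 2631 bases downstream of the start of the canonical transcript, and the promoter of the latter is not shown.

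AXIN1: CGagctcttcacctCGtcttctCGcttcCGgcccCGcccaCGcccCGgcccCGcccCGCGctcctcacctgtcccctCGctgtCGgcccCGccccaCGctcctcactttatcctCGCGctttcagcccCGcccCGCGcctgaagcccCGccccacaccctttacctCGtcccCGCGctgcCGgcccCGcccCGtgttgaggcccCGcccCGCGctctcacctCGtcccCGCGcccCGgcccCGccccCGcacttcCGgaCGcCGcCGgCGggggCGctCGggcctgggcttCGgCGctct
LEF1: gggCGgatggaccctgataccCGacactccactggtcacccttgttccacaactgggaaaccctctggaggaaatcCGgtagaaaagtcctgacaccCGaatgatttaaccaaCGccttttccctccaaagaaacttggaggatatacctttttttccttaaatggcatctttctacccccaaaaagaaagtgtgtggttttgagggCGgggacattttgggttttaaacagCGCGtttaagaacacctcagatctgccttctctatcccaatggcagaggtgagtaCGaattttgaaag

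The *AXIN1* window had 78% GC and 44 CpG, more than 95.8% of the 35116 promoter windows in the table. The internal *LEF1* window had 47% GC and 9 CpG, more than 41.6% of them, and since the windows differ in kind the 2 genes are not compared. The median over all windows was 58.7% GC and 14 CpG. Promoter windows were found for 8 of the 10 genes (12 windows), and not for *AXIN2* and *ZNRF3*. The letters CTTTGA, the core of the TCF/LEF motif, were searched on both strands and were in 0 of the 12 windows and in 12.9% of all windows. The letters CCACCCC, the end of the RAS-response element, were in 4 of the 12 windows and in 16.6% of all windows. The 4 matches are given with 10 bases on each side and the matched letters in capitals (CCACCCC, or GGGGTGG where the match is on the other strand), on the plus strand, for *CTNNB1* at chr3:41199312-41199338, *TCF7* at chr5:134115505-134115531 and *TCF7L2* at chr10:112950151-112950177 and chr10:113126586-113126612.

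CTNNB1: cccaggcaccCCACCCCggcccggggc
TCF7: gcagaacccaGGGGTGGagagtggggg
TCF7L2, first window: cccgccccgcCCACCCCggctgtttat
TCF7L2, second window: cttttgtgggGGGGTGGgttgttgtgg

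The *CTNNB1* window and the first *TCF7L2* window are at the start of the canonical transcript, the *TCF7* window 932 bases and the second *TCF7L2* window 176386 bases downstream of it. These matches are descriptions of letters and not binding sites. The genes that hold them had log2 fold changes of −0.29 (*CTNNB1*), −0.01 (*TCF7*) and 0.08 (*TCF7L2*), none past an adjusted p of 0.05 with edgeR.

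*LEF1* encodes a DNA-binding partner of β-catenin and had the smallest adjusted p of the 10 genes. It lies on chromosome 4 (108047545 to 108168956, minus strand, GRCh38) and has 12 exons. Its level was 22.1, 17.5 and 20.2 CPM in the sh-control libraries and 30.9, 31.4 and 29.5 CPM in sh-*RREB1*. The groups did not overlap, and the lowest sh-*RREB1* library was 1.33 times the highest sh-control library. The log2 fold change was 0.62 (SE 0.14, 95% interval 0.30 to 0.94, edgeR adjusted p = 0.0191), under the fold of the call rule. Genes of its decile of GC content (46.7 to 49.4%) had a median of −0.07. With the trend removed its value was 0.60 (SE 0.12, 95% interval 0.33 to 0.87, edgeR adjusted p = 0.00481), and with DESeq2 it was also 0.60 (adjusted p = 0.00123).

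Across 22 alternative settings the value of *LEF1* stayed above 0, from 0.49 to 0.71. As the groups did not overlap, leaving out 1 library with no correction could hardly turn this direction. The adjusted p was below 0.05 in 18 settings. The 4 others each left out 1 library with no correction. The adjusted p (edgeR) was then 0.098 and 0.0525 with sh-control replicate 2 or 3 left out, and 0.0513 and 0.07 with sh-*RREB1* replicate 1 or 3 left out. The antisense gene *LEF1-AS1* was near 1 CPM or lower in every library, at 0.609, 0.956 and 0.934 CPM in the sh-control libraries and 0.523, 1.22 and 0.555 CPM in sh-*RREB1*. Reads on the strand opposite to *LEF1* were 0.8% of the reads on both strands.

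*TCF7* encodes the protein known as TCF1. It was measured at 6.09, 6.43 and 5.73 CPM in the sh-control libraries and 6.04, 6 and 6.1 CPM in sh-*RREB1*, with a log2 fold change of −0.01 (SE 0.16, edgeR adjusted p = 0.977). Genes of its decile of GC content (55.9 to 59.7%) had a median of 0.61, and with the trend removed its value was −0.59 (SE 0.20, edgeR adjusted p = 0.0509). *TCF7* on chromosome 5 (134114681 to 134151865, plus strand, GRCh38) overlaps *SKP1* on the opposite strand, and 45.3% of the reads over its exons were on that strand, so its count differs between stranded and unstranded counting.

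*TCF7L2*, the main TCF of intestinal epithelium, was at 17, 8.82 and 10.3 CPM in the sh-control libraries and 14, 11.3 and 12.8 CPM in sh-*RREB1*. Sh-control replicate 1 was the highest library and the groups overlapped, with a log2 fold change of 0.08 (SE 0.25, edgeR adjusted p = 0.859), or 0.15 with the trend removed (edgeR adjusted p = 0.68). *TCF7L1* was at 0.478, 0.588 and 0.405 CPM in the sh-control libraries and 0.926, 0.573 and 0.951 CPM in sh-*RREB1* (12 to 23 reads). Its log2 fold change of 0.71 (SE 0.35, edgeR adjusted p = 0.184) did not pass the test, and with the trend removed it was 0.12 (95% interval −0.78 to 1.02, edgeR adjusted p = 0.875).

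Within the TCF/LEF family, *LEF1* was the leading transcript in every library. Its share of the 4 summed levels per kb was 49.9, 53.2 and 56.2% in sh-control and 60.8, 64.6 and 60.9% in sh-*RREB1*, and the groups did not overlap. *TCF7L2* took 33.8, 23.5 and 25.1% in sh-control and 24.2, 20.5 and 23.1% in sh-*RREB1*. The share of *TCF7* was 15, 21.2 and 17.3% in sh-control and 12.9, 13.4 and 13.7% in sh-*RREB1*, also without overlap. The sum of the 4 was 12.4, 9.22 and 10.1 CPM per kb in sh-control and 14.2, 13.6 and 13.5 CPM per kb in sh-*RREB1*. Shares of a sum are not independent of each other, and they are given as a description.

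**Figure D3:**
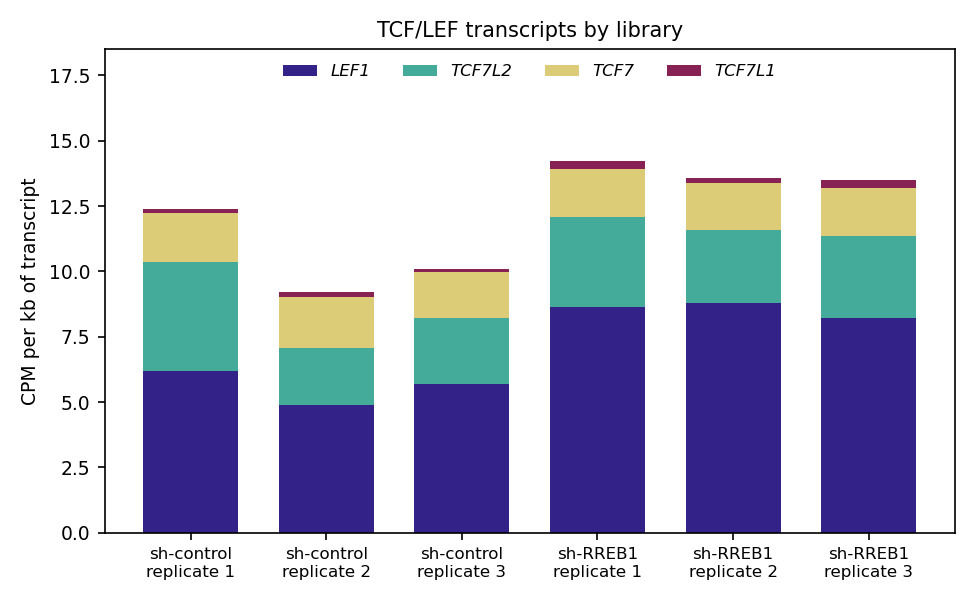
Level of the 4 TCF/LEF genes in CPM per kb of canonical transcript, stacked for each of the 6 libraries, with no error bars since each bar is 1 library. LEF1 is the largest segment in every bar, from 49.9% of the sum in sh-control replicate 1 to 64.6% in sh-RREB1 replicate 2.

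At the membrane, the R-spondin receptor *LGR4* was the most abundant of the regulators. It lies on chromosome 11 (27365961 to 27472790, minus strand, GRCh38). Its level was 111, 104 and 93 CPM in the sh-control libraries and 93.9, 65.7 and 84.4 CPM in sh-*RREB1*, and the ranges touched only at sh-control replicate 3 and sh-*RREB1* replicate 1. The log2 fold change was −0.34 (SE 0.15, edgeR adjusted p = 0.144), and −0.12 with the trend removed (edgeR adjusted p = 0.437).

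*ZNRF3*, on chromosome 22 (28883572 to 29057488, plus strand, GRCh38), was at 20.7, 19.6 and 20.3 CPM in the sh-control libraries and 32.2, 26.5 and 29.6 CPM in sh-*RREB1*. The sh-control libraries lay within 1.06-fold of each other and all sh-*RREB1* libraries were above them. The log2 fold change was 0.55 (SE 0.14, 95% interval 0.23 to 0.86, edgeR adjusted p = 0.0265). Genes of its decile of GC content had a median of 0.32, and with the trend removed its value was 0.26 (edgeR adjusted p = 0.302). With 1 library left out and no correction it lay between 0.48 and 0.62 (edgeR adjusted p from 0.0276 to 0.125).

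*RNF43*, the paralogous ligase on chromosome 17 (58353676 to 58417595, minus strand, GRCh38), was at 10.8, 7.5 and 9.28 CPM in the sh-control libraries and 9.42, 9.7 and 9.11 CPM in sh-*RREB1*. The groups overlapped, with a log2 fold change of 0.03 (SE 0.18, edgeR adjusted p = 0.917), or −0.07 with the trend removed (edgeR adjusted p = 0.806), and 11.2% of the reads over its exons were on the opposite strand. The ratio of *ZNRF3* to *RNF43* per kb was 1.26, 1.72 and 1.44 in sh-control and 2.25, 1.8 and 2.14 in sh-*RREB1*, without overlap between the groups (smallest exact permutation p for 3 against 3, 0.1). This ratio too compares genes of unequal GC content, at 53.3% for *ZNRF3* and 50.6% for *RNF43*.

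**Figure D4:**
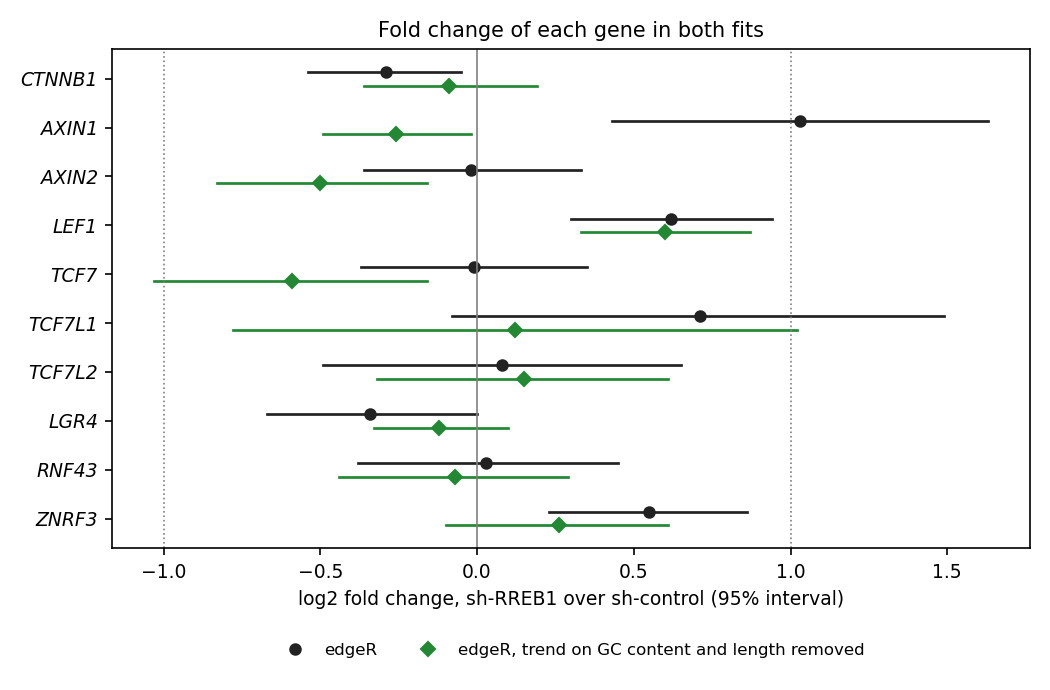
Log2 fold change of each of the 10 genes (sh-RREB1 over sh-control) with its 95% interval, from edgeR (black circles) and from edgeR with the trend on GC content and length removed (green diamonds), with dotted lines at the fold of the call rule. LEF1 is at 0.62 and 0.60 in the 2 fits, while AXIN1 goes from 1.03 to −0.26.

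The genes whose pattern was most like that of *LEF1*, by Pearson's r of log2 CPM over the 6 libraries, were the sodium channel gene *SCN3A* (r = 0.9933), the teneurin gene *TENM1* (r = 0.9927) and the homeobox gene *IRX6* (r = 0.9927). Of 14505 genes compared, 636 had an r above 0.9, and all share the same 6 libraries and their depth. *SCN3A* was at 3.65, 2.54 and 2.8 CPM in the sh-control libraries and 6.92, 6.95 and 6.34 CPM in sh-*RREB1*. *IRX6* was at 0.695, 0.294 and 0.436 CPM in the sh-control libraries and 1.69, 1.57 and 1.58 CPM in sh-*RREB1*. It reached the mean of 1 CPM needed for this comparison only through sh-*RREB1*, so its place is no support for a shared pattern. With the trend removed its log2 fold change was 0.80 (edgeR adjusted p = 0.228).

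The other genes of the pathway were described from 7 lists of 102 genes, of which 85 were tested. With edgeR, 7 of the 85 were called, all higher in sh-*RREB1* (2.71% of all genes) and *APC2* among them on 4 sh-control reads in all. None were called lower (0.698% of all genes). At an adjusted p of 0.05 with edgeR, 18 passed as higher (10.8% of all genes) and 12 as lower (8.81%). DESeq2 called 9 higher (5.93% of all genes) and 3 lower (1.13%). The median log2 fold change of the 85 was 0.17, and −0.11 with the trend removed, when 5 were called higher (1.82% of all genes) and 2 lower (1.2%). These calls depend on single libraries: leaving out sh-control replicate 1 gave 9 calls, leaving out sh-control replicate 3 gave 3, and leaving out sh-control replicate 2 or any 1 of the sh-*RREB1* libraries gave 0. With the trend removed, 5 to 8 were called when each library was left out.

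Among receptors and the R-spondin axis, 3 of 16 genes tested were called higher (2.71% of all genes) and 0 lower (0.698%). At an adjusted p below 0.05 with edgeR and no minimum fold, 5 were higher (10.8% of all genes) and 3 lower (8.81%). With the trend removed 4 were called higher (1.82% of all genes) and 2 lower (1.2%). The R-spondin gene *RSPO2* was at 9, 4 and 1 reads in the sh-control libraries and 45, 54 and 26 reads in sh-*RREB1*, a log2 fold change of 3.46 (SE 0.52, edgeR adjusted p = 0.00483) and 3.54 with the trend removed. The co-receptor gene *LRP5* rose from 1.26, 2.61 and 4.42 CPM to 12.6, 18.9 and 12.6 CPM, by 2.39 on the log2 scale and by 1.28 with the trend removed. The Frizzled gene *FZD2* rose by 2.06 on the log2 scale, or 1.64 with the trend removed. The other co-receptor gene, *LRP6*, had a value of −0.37 (edgeR adjusted p = 0.0447), or −0.16 with the trend removed (edgeR adjusted p = 0.172). *FZD3* had a value of 0.25 (edgeR adjusted p = 0.457), or 0.33 with the trend removed (edgeR adjusted p = 0.0316). The 2 lower with the trend removed, named after their values were seen, were the Frizzled genes *FZD10* and *FZD8*. *FZD10* was at 1.3, 1.21 and 1.46 CPM in the sh-control libraries and 0.402, 0.611 and 0.317 CPM in sh-*RREB1*, with a log2 fold change of −1.51 (SE 0.31, edgeR adjusted p = 0.0127; called by DESeq2, adjusted p = 0.00346) and of −2.22 with the trend removed (edgeR adjusted p = 0.000879). *FZD8* went from 0.10 (edgeR adjusted p = 0.794) to −1.26 with the trend removed (edgeR adjusted p = 0.00156).

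In the destruction complex and Dishevelled list 2 of 18 genes tested were called higher, *DVL1* and *APC2* (2.71% of all genes), and 0 lower (0.698%). At an adjusted p below 0.05 with edgeR and no minimum fold, 6 were higher (10.8% of all genes) and 2 lower (8.81%). With the trend removed 0 were called (3.02% of all genes), while 2 were higher (10.4%) and 3 lower (11.7%) at an adjusted p below 0.05. *DVL1*, which relays the signal from Frizzled, rose from 1.43, 3.93 and 5.26 CPM to 16.9, 19.3 and 14.4 CPM, with sh-control replicate 1 lowest. Its log2 fold change was 2.24 (SE 0.38, edgeR adjusted p = 0.00718). With the trend removed it was 0.67 (edgeR adjusted p = 0.00269), under the fold of the call rule. *APC2*, a paralog of the scaffold *APC*, had 1, 1 and 2 reads in sh-control against 11, 13 and 9 reads in sh-*RREB1*. It passed the filter on low counts only through the sh-*RREB1* libraries, so its call is no support for a rise, and no fold is given. *APC* itself had a value of −0.59 (SE 0.11, edgeR adjusted p = 0.00954), under the fold of the call rule, or −0.37 with the trend removed. The kinase gene *CSNK1E* had a value of 0.87 (edgeR adjusted p = 0.045), or 0.15 with the trend removed (edgeR adjusted p = 0.259).

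Of 13 nuclear partners of β-catenin tested, 1 was called higher (2.71% of all genes) and 0 lower (0.698%). At an adjusted p below 0.05 with edgeR, 3 were higher (10.8%) and 1 lower (8.81%). With the trend removed 0 were called (3.02%), while 2 were higher (10.4%) and 5 lower (11.7%) at an adjusted p below 0.05. The called co-activator gene, *BCL9L*, had 9, 9 and 8 reads in the sh-control libraries and 43, 42 and 17 in sh-*RREB1*. It rose by 2.29 on the log2 scale (1.06 and not called with the trend removed). The co-repressor gene *TLE4* had a value of −0.70 (edgeR adjusted p = 0.00952), or −0.62 with the trend removed, and the chromatin remodeller gene *CHD8* one of −0.11 (edgeR adjusted p = 0.592). Another co-repressor gene, *TLE3*, named after its value was seen, was higher at 0.62 (edgeR adjusted p = 0.016). With the trend removed *TLE3* was at −0.11 (edgeR adjusted p = 0.599). Of 11 other textbook targets tested, 1 was called higher (2.71% of all genes) and 0 lower (0.698%). At an adjusted p below 0.05 with edgeR and no minimum fold, 4 were higher (10.8%) and 1 lower (8.81%). With the trend removed 2 were called higher (1.82% of all genes) and 0 lower (1.2%). At an adjusted p below 0.05 there were then 3 higher (10.4%) and 3 lower (11.7%). *MYC*, the gene called before the trend was removed, rose from 18, 16.4 and 18.2 CPM to 35.5, 40.4 and 34.2 CPM. Its log2 fold change was 1.06 (0.89 and under the fold of the rule with the trend removed). The cyclin gene *CCND1* had a value of 0.51 (edgeR adjusted p = 0.0373), or 0.31 with the trend removed (edgeR adjusted p = 0.0643). The feedback inhibitor gene *NKD1* had one of −0.18 (edgeR adjusted p = 0.477), or −0.40 with the trend removed (edgeR adjusted p = 0.0241).

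With edgeR 0 genes were called among 14 ligands and export genes tested, 12 inhibitors and 5 adherens junction partners. At an unadjusted p below 0.05 there were 4 of 14, 7 of 12 and 3 of 5, against 34.4% of all genes, and DESeq2 called 1, 1 and 0, against 7.06%. At an adjusted p below 0.05 with edgeR, 1, 0 and 0 were higher and 2, 3 and 1 lower, against 10.8% and 8.81% of all genes. *WLS*, which carries WNT proteins to the surface, was the most abundant ligand-list gene and was at 190, 193 and 206 CPM in the sh-control libraries and 111, 143 and 134 CPM in sh-*RREB1*. Its log2 fold change was −0.60 (SE 0.12, edgeR adjusted p = 0.0116), and −0.52 with the trend removed (edgeR adjusted p = 0.0023). *WNT5A* had a value of 0.34 (edgeR adjusted p = 0.291), or 0.52 with the trend removed (edgeR adjusted p = 0.0299). The inhibitor gene *KREMEN1* had one of −0.07 (edgeR adjusted p = 0.87), or −0.56 with the trend removed (edgeR adjusted p = 0.00243). The catenin genes *CTNNA1* and *CTNND1* had values of 0.06 and −0.32 (edgeR adjusted p = 0.809 and 0.0907), or 0.06 and −0.18 with the trend removed. The cadherin gene *CDH1*, named after its value was seen, was at −0.89 (edgeR adjusted p = 0.00931), under the fold of the call rule. With the trend removed it was at −0.88 (edgeR adjusted p = 0.00118).

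**Figure D5:**
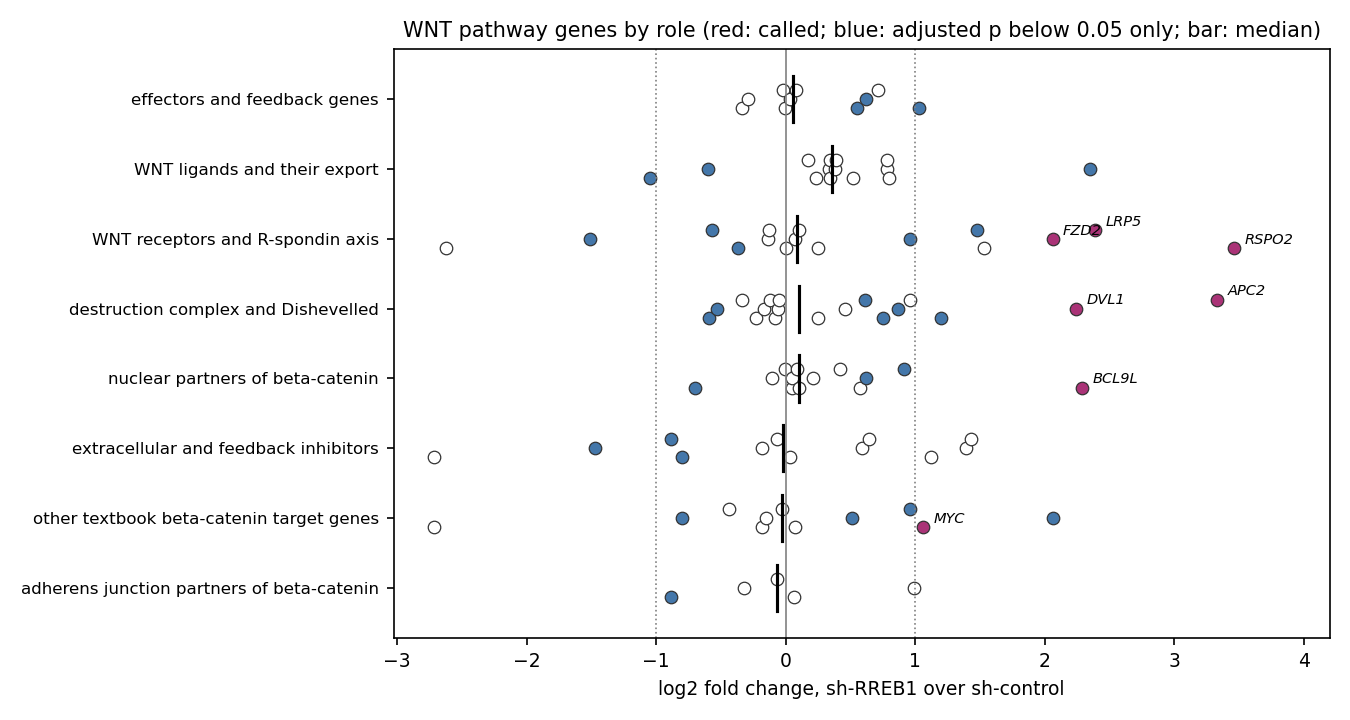
Log2 fold change (sh-RREB1 over sh-control, edgeR) of each tested gene of the 10 effectors and feedback genes and of the 7 other WNT lists, 1 row per list, with the list's median as a bar. The 7 called genes (red, named) all lie above 1, and none of the 10 effectors and feedback genes in the top row was called.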

How the data were processed

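Total RNA libraries (a strand-specific kit) of 3 sh-control and 3 sh-*RREB1* samples were analysed. The authors aligned reads with STAR (2.4.2a) to hg38 with Gencode (25) and deposited raw read counts per gene, without normalization. Gene-strand counts were used, and reads on no gene were left out. Identifiers (58037) were collapsed by symbol, keeping the one with most reads, and genes with at least 10 reads in all were tested, as in the methods. Tests used edgeR 4.0.16 (quasi-likelihood, TMM, condition only) in R 4.3.3 with Benjamini-Hochberg adjustment, and DESeq2 1.42.0 as the alternative. The GC and length correction used natural splines (5 degrees of freedom), fitted to genes whose mean log2 CPM exceeded 0 and entered as an offset. CPM values are TMM-scaled. The tests were tried on simulated counts. The closest pair of libraries, sh-control replicates 2 and 3, still differed beyond sampling noise (chi-square over its degrees of freedom, 5.16). No library was therefore taken as a repeat of another, and all 6 were entered in the fits. This value cannot tell separate cultures from separate preparations of the same RNA. Depth and the 3 libraries in each group limit precision.

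The genes and lists were chosen with earlier results of these data known. Named genes were the 10 genes, per list the called genes (at most 4) and at most 2 others of highest mean CPM, the 3 nearest to the gene of smallest adjusted p among genes of at least 1 CPM, and *RREB1*. Gene positions and GC content came from the Gencode annotation on GRCh38, and promoters from RefSeq. Alternatives were other scalings, filters, strands, the merged count table, a replicate block, each library left out, and looser thresholds. The correction with each library left out, and the alternatives for the other WNT genes, were chosen after seeing the data.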

Additional observations from a re-analysis of the deposited data

How the results depend on the processing

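Over all genes, 795 were called with edgeR, 1647 with DESeq2, 1804 with a minimum of 1 read, and 4577 at an adjusted p below 0.05 with no minimum fold. With each library left out the count was 8 to 1119: 9 without sh-control replicate 2, 384 without sh-control replicate 3, and 25, 136 and 8 when sh-*RREB1* replicate 1, 2 or 3 was left out. With the GC and length correction it was 706, and 458 to 716 with each library left out (507 without sh-control replicate 2, 492 and 458 when sh-*RREB1* replicate 1 or 3 was left out). The same settings gave, for the 10 genes, 1 call (*AXIN1*) with DESeq2 and with a minimum of 1 read, and 3 at 0.05, and, for the other WNT genes, 12, 14 and 30 calls, or 0 to 9 with each library left out (5 to 8 with the correction). *AXIN1* was called at 1.01 with DESeq2 and at 1.03 with a minimum of 1 read.

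The labels number the replicates alike, and the deviations of same-numbered libraries correlated at 0.501 and 0.434 for replicates 1 and 2 but at −0.275 for replicate 3. Since not every pair deviated together, the numbers were not taken to pair the libraries. With the replicate block 1685 genes were called, 1 of the 10 (*AXIN1*, 1.09) and 12 other WNT genes.

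Directions changed for these genes. *AXIN1* was at −0.26 with the correction, with or without the replicate block. With the correction and each library left out it was at −0.32 to −0.22 (−0.22, −0.25 and −0.32 for sh-control 1 to 3, −0.30, −0.22 and −0.26 for sh-*RREB1* 1 to 3). With each library left out and no correction *AXIN1* kept its direction, at 0.73 to 1.20. *RNF43* was at −0.06 with upper-quartile scaling, at −0.07 with the correction and −0.06 with correction and replicate block, at −0.12 to 0.13 with each library left out and −0.22 to 0.12 with the correction too (−0.01 without sh-*RREB1* replicate 2). *TCF7L2* was at −0.03 with upper-quartile scaling, −0.13 to 0.38 with each library left out and −0.04 to 0.46 with the correction too. *AXIN2* was at 0.04 with edgeR's filterByExpr, 0.01 with both strands counted and −0.08 to 0.04 with each library left out, and *TCF7* at 0.05 with filterByExpr and −0.08 to 0.01. *TCF7L1* was at −0.16 to 0.47 with the correction and each library left out. The cause of these changes was not tested.

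Per kb of all exons together rather than of the canonical transcript, sh-control levels were 95.3 (*CTNNB1*), 16.2 (*LGR4*), 3.72 (*LEF1*), 1.79 (*TCF7L2*), 1.4 (*AXIN1*), 2.01 (*AXIN2*), 1.45 (*RNF43*), 0.603 (*TCF7*) and 0.111 (*TCF7L1*) CPM per kb. *CTNNB1*, *LEF1*, *LGR4* and *ZNRF3* kept their direction in all 22 settings. For *CTNNB1*, *LEF1* and *ZNRF3*, whose groups did not overlap, it could hardly change when 1 library was left out with no correction.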

Other observations

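Other genes of the R-spondin axis and of the targets had values outside the call rule or under the correction alone, and are named here after their values were seen. *LGR5*, a paralog of *LGR4* and a stem cell marker, was at 3.96, 3.64 and 3.74 CPM in the sh-control libraries and 7.85, 6.91 and 7.29 CPM in sh-*RREB1*. The groups did not overlap. Its log2 fold change was 0.96 (SE 0.17, edgeR adjusted p = 0.00744), and 1.15 with the GC and length correction (edgeR adjusted p = 0.000165). *LGR4* had a value of −0.34 in the same fit, and the difference between the 2 receptors was not tested. The target gene *CD44*, which encodes a hyaluronan receptor, had 5, 8 and 7 reads in the sh-control libraries and 13, 43 and 11 in sh-*RREB1*, a log2 fold change of 2.06 (SE 0.50, edgeR adjusted p = 0.022) and of 2.25 with the correction (edgeR adjusted p = 0.00738). The 43 reads were in sh-*RREB1* replicate 2, which also had the highest sum of fibroblast markers, and a link was not tested.

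Among the ligands, *WNT2B* was at 8.78, 6.21 and 6.2 CPM in the sh-control libraries and 3.02, 3.74 and 3.41 CPM in sh-*RREB1*, a log2 fold change of −1.05 (SE 0.21, edgeR adjusted p = 0.0119) and of −0.99 with the correction (edgeR adjusted p = 0.00164). *EYA1*, one of the HEK293 markers, rose from 9.91, 8.9 and 10 CPM to 32.9, 34.1 and 35.7 CPM, by 1.83 on the log2 scale (SE 0.14, edgeR adjusted p = 0.00067).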
